A study of Homo sapiens with 6 samples.

Results

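AP-1 is a family of transcription factors that bind DNA as pairs. The 8 genes described here encode its subunits: FOS, FOSB, FOSL1 and FOSL2 of the FOS family, JUN, JUNB and JUND of the JUN family, and ATF3 of the related ATF family. They were selected by gene symbol, and all 8 were found among the 26364 symbols of the count files. Each subunit carries a basic region that contacts DNA and a leucine zipper that holds the pair together. FOS proteins need a JUN partner to bind DNA stably, whereas JUN proteins also pair with each other and with ATF proteins. Many of these genes are immediate early genes, switched on within minutes by growth factors, serum or stress, and their messengers decay fast. In breast cancer cells AP-1 is known for driving proliferation, invasion and matrix remodelling genes, and ATF3 is best known as a gene of the stress response.

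The transcripts were measured by RNA sequencing in ZR-75-30, an established line of luminal breast adenocarcinoma with amplified ERBB2. The control group (3 libraries) received the empty pLVX lentivirus, and the CDK12 group (3 libraries) the same vector carrying CDK12, the gene of a cyclin K-dependent kinase of RNA polymerase II. The question is how the transcriptome responds to added CDK12. The promoter in the vector, any drug selection and the time after infection are not stated in the sources used here. Nor is it stated whether replicates were separate infections, so a p-value measures only the spread between these libraries.

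Libraries held 21178163 to 26543653 counts, and a count of 0 would allow up to 3 counts, or 0.113 to 0.142 CPM (a gene's counts scaled to a common library total). This limit was taken on total counts and covers counting error only, whereas all CPM values below include TMM factors. CDK12 itself was 27.3-fold higher in the CDK12 libraries, each of which matched its label, and viral and endogenous copies are counted together. The 9 luminal markers summed to 13860 to 14530 CPM in controls and 12300 to 12880 CPM with CDK12. Most of that sum was the amplified ERBB2, at 8338 to 8829 CPM against 7152 to 7645 CPM. MUC1 went the other way (300.4 to 334.5 CPM against 388.5 to 419.4 CPM), as did the less abundant CDH1 (15.97 to 18.02 CPM against 18.06 to 20.51 CPM). Of 5 leukocyte markers, the sum was 4.67 to 5.71 CPM against 2.13 to 2.88 CPM with CDK12, a difference nearly all from PTPRC (2.83 to 3.03 CPM against 0.292 to 0.412 CPM). CD68 overlapped between the groups, and LYZ was at most 0.371 CPM. Of 5 fibroblast markers, THY1 was at 0 in every control, while the sum, nearly all COL1A1, was 46.0 to 50.7 CPM against 60.1 to 71.0 CPM. Endothelial markers summed to 2.49 to 3.29 CPM against 1.56 to 2.21 CPM. Control replicate 1 stood apart in 15 interferon-stimulated genes, with a mean log2 level of 5.65 against 4.87 and 4.75 in the other controls and 2.52 to 2.599 in the CDK12 libraries. The part of these differences in the results below was not tested, except where a value without that library is given.

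Upstream sequences are shown for the 4 members that changed, since AP-1 subunits are known to bind their own promoters. RefSeq sequences on GRCh38.p14 were matched by symbol for 7 of the 8 members, with a pair of starts for ATF3. FOSL1 had no sequence and was not searched. The 250 bases before the annotated start are printed 5′ to 3′ on the gene's strand. Capitals mark matches on either strand to TGACNTCA, the octamer to which JUN and ATF proteins are known to bind, to TGANTCA, the classical AP-1 heptamer, or to the TATAA of a TATA box. In order, the windows are chr1:58784048-58784297 (minus strand), chr19:12791236-12791485 (plus), chr19:18281623-18281872 (minus) and, for the upstream start of ATF3, chr1:212565157-212565406 (plus).
JUN: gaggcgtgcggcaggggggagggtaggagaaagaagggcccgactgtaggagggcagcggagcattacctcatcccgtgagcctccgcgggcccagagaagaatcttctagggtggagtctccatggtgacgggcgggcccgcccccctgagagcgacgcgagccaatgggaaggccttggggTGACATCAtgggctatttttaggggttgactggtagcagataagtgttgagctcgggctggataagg
JUNB: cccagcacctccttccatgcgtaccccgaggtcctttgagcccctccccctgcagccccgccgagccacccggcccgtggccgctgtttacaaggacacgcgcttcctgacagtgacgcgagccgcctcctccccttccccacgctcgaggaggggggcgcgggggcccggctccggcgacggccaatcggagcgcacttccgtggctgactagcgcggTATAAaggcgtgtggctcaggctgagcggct
JUND: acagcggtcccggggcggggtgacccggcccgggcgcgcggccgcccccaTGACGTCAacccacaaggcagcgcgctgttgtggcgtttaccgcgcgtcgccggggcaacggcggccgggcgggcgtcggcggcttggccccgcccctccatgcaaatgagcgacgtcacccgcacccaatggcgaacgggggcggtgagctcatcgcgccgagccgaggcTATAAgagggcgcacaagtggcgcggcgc
ATF3: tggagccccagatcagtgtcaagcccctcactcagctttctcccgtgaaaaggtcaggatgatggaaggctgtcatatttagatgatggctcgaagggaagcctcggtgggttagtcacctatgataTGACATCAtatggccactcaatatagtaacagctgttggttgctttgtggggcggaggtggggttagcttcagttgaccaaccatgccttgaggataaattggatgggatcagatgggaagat

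The octamer stood in the windows of JUN (TGACATCA, -67 to -60 from the start), JUND (TGACGTCA, -200 to -193) and the upstream start of ATF3 (TGACATCA, -123 to -116). With 50 transcribed bases added, it was found in 7.72% of all 35116 RefSeq promoter windows of 300 bases. TGANTCA was matched at FOSL2 alone among the members searched (TGACTCA, 5 to 11 bases into the transcript), against 7.71% of all windows. JUNB and JUND have a TATAA (20.4% of all windows), as do FOS and FOSB, all close to the start, while the TATAA at the downstream start of ATF3 lies at -230 to -226. The core of the serum response element (the CArG box, 1.29% of all windows) had no match within these windows of the members. A match describes letters only, and which start the cells used was not measured.

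In the CDK12 libraries all 3 JUN family genes fell, ATF3 rose slightly, and none of the 4 FOS family genes passed the test. The fall was 1.48-fold for JUN, 1.23-fold for JUNB and 1.178-fold for JUND, and the rise was 1.11-fold for ATF3. All 8 members passed the filter on low counts, so none is left out. Of the 8, 3 were called lower and 1 higher at an adjusted p of 0.05 (edgeR quasi-likelihood test, Benjamini-Hochberg over 14665 genes). Among all genes tested, 35.1% were called, 18.9% lower and 16.2% higher, so that 4 calls among 8 genes is not far from that background. The 4 called members were also those whose groups did not overlap, as was true of 45.6% of all genes tested. Summed over the 8 genes, the level was 579 to 603 CPM in controls and 500.3 to 534 CPM with CDK12. In these bulk libraries, fewer cells expressing a gene and less RNA per cell cannot be told apart.

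JUN, the strongest activator of its family, had the largest shift. Its level was 109, 103 and 100 CPM in control replicates 1, 2 and 3, and 73.2, 66.4 and 70.7 CPM in the CDK12 replicates. Every CDK12 library lay well under every control, and the gap between the groups was far wider than the spread within either. The means were 104 ± 4.64 and 70.1 ± 3.42 CPM (SD, n = 3 per group). JUN thus fell by 32.6%, which on the log2 scale is -0.57 (SE 0.05, adjusted p = 3.93e-10 by edgeR's quasi-likelihood test). In size, this shift exceeded that of 91.8% of the genes tested. An exact permutation test of its 6 levels (two-sided) gave p = 0.1, the smallest that 3 against 3 libraries can give.

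JUNB, which dimerises like JUN but activates many targets more weakly, was at 210, 199.97 and 212 CPM in controls and 171, 159 and 176 CPM with CDK12. The groups again did not overlap. JUNB fell from 207 ± 6.48 to 169 ± 8.61 CPM, a log2 change of -0.30 (SE 0.04; adjusted p = 5.69e-06 in edgeR). JUND, the family member usually expressed most steadily and least tied to growth stimuli, was at 77.9, 71.9 and 85.1 CPM in controls. In the CDK12 libraries it was at 69.7, 63.5 and 66.4 CPM. The lowest control and the highest CDK12 library lay close together, and control replicate 3 was the highest. JUND fell from 78.3 ± 6.64 to 66.5 ± 3.07 CPM, a log2 change of -0.24 (SE 0.05; adjusted p = 0.0013 in edgeR). Without control replicate 3 its log2 fold change was -0.17 (adjusted p = 0.0285, edgeR quasi-likelihood).

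**Figure D1:**
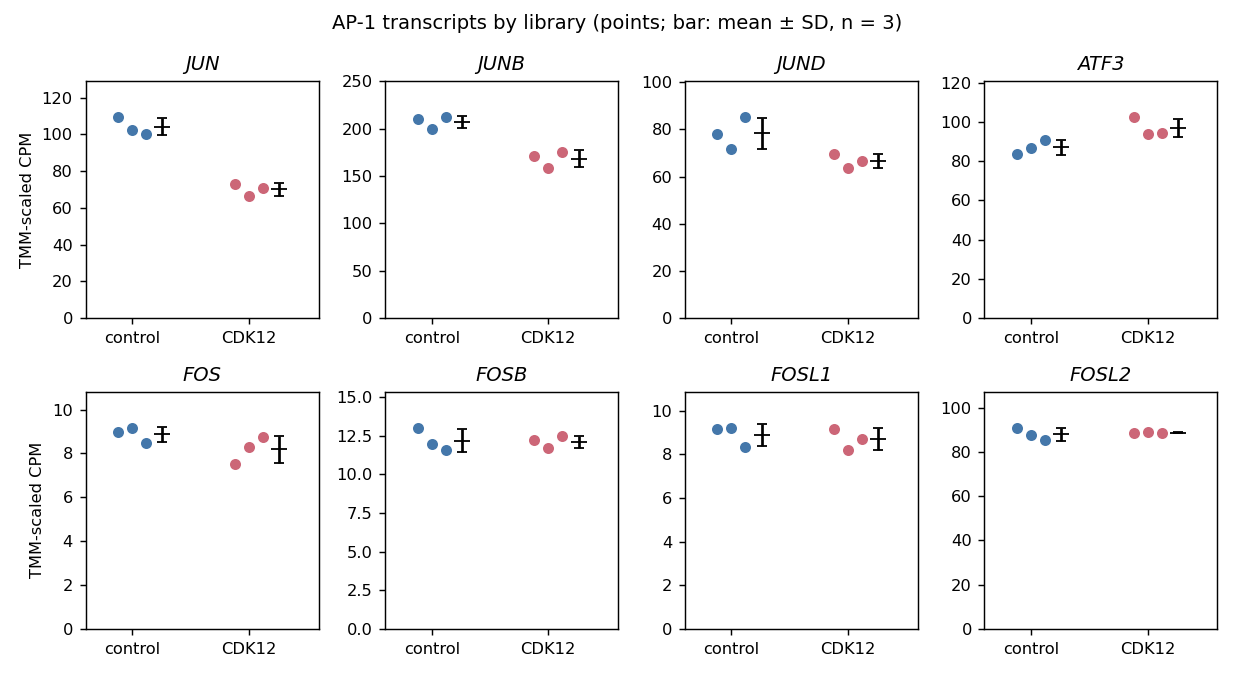
TMM-scaled CPM of the 8 AP-1 genes (vertical axes, each from 0) in the 3 control and 3 CDK12 libraries; points are libraries in the order of replicates 1 to 3, and bars give the mean ± SD. JUN, JUNB and JUND are lower and ATF3 higher in every CDK12 library than in any control, while the groups overlap for the 4 FOS family genes.

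ATF3, a stress-induced subunit that often represses as a homodimer, was the one member that rose. It was at 83.5, 86.7 and 90.7 CPM in controls and 102, 94.0 and 94.3 CPM with CDK12. The groups did not overlap, but control replicate 3 came near to the lower CDK12 libraries. The mean went from 87.0 ± 3.63 to 96.9 ± 4.75 CPM, a log2 change of 0.16 (SE 0.05; adjusted p = 0.0118 in edgeR). This shift was larger than that of 53.9% of the genes tested. The call was lost without control replicate 1, the library with high interferon-stimulated genes (log2 fold change 0.13, adjusted p = 0.088), and without CDK12 replicate 1 (0.12, adjusted p = 0.0603, both by edgeR quasi-likelihood).

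The FOS family, which encodes the partners that bind DNA only with a JUN protein, showed no called member. FOS, the prototype immediate early gene, was at 8.96, 9.16 and 8.48 CPM in controls and 7.51, 8.28 and 8.75 CPM with CDK12. The groups overlapped, with a log2 fold change of -0.12 (95% interval -0.31 to 0.08, edgeR quasi-likelihood adjusted p = 0.355). FOSB, whose splice forms include a shortened protein, was at 13.01, 11.9 and 11.6 CPM against 12.2, 11.7 and 12.5 CPM. Its log2 fold change was -0.01, with an interval of -0.17 to 0.16 (adjusted p = 0.956).

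FOSL1 encodes FRA1, a subunit linked to invasive, basal-like breast cancer. It was at 9.18, 9.21 and 8.32 CPM in controls and 9.18, 8.20 and 8.71 CPM with CDK12, a log2 fold change of -0.03 with an interval of -0.22 to 0.16. FOSL2, which encodes FRA2, was at 90.9, 87.7 and 85.2 CPM in controls and 88.6, 89.2 and 88.5 CPM with CDK12. All its CDK12 libraries fell inside the range of the controls. With 1829 to 2383 counts per library, its log2 fold change of 0.01 had the narrowest interval of the family, -0.08 to 0.10. FOS and FOSL1 had 191 to 247 counts per library, which gives them wider intervals, so shifts of the size seen for JUND lie within the interval of FOS. The adjusted p was 0.833 for FOSL1 and 0.84 for FOSL2 (edgeR quasi-likelihood).

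**Figure D2:**
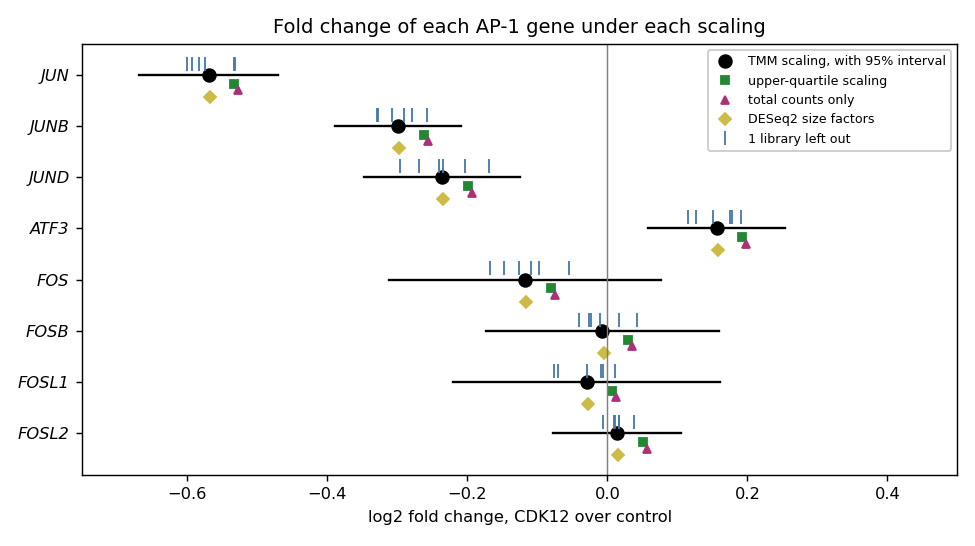
Log2 fold change, CDK12 over control (horizontal axis), of each AP-1 gene: black points and lines give the TMM-scaled estimate with its 95% interval, coloured symbols other scalings, and blue ticks the values with 1 library left out. The intervals of JUN, JUNB, JUND and ATF3 lie clear of 0 and those of the 4 FOS family genes cross it.

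Ratios taken within a library do not depend on how libraries are scaled, so each member's counts were divided by those of JUN in the same library. All 7 ratios were higher in every CDK12 library than in any control. Since JUN had the largest fall of the 8 genes, its ratios had to rise, and those of the 4 FOS family genes restate the fall of JUN. The ratio of FOSL2 to JUN counts was 0.832, 0.856 and 0.849 in controls and 1.21, 1.34 and 1.25 with CDK12, a 1.499-fold difference. For ATF3 it was 0.764, 0.845 and 0.903 against 1.40, 1.42 and 1.34, a 1.65-fold difference and the widest of the 7. The other JUN family genes also gained on JUN: the JUNB ratio went from a mean log2 value of 0.99 ± 0.07 to 1.27 ± 0.05 and the JUND ratio from -0.41 ± 0.15 to -0.08 ± 0.01 (SD, n = 3). The ratios of FOS, FOSB and FOSL1 differed by 1.37-fold, 1.48-fold and 1.45-fold. Each exact two-sided permutation test gave p = 0.1, the smallest possible with 3 against 3 libraries, and 0.1 after Benjamini-Hochberg adjustment over the 7 ratios, which share JUN as denominator.

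**Figure D3:**
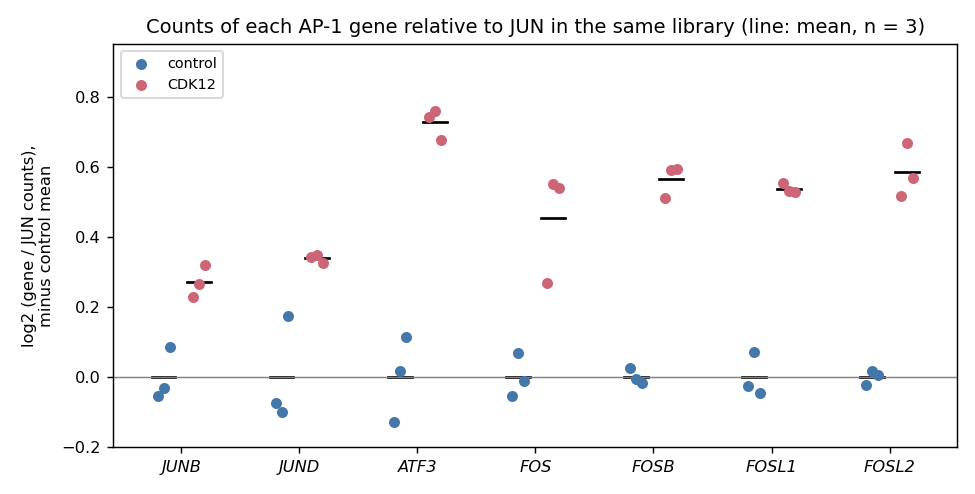
Log2 ratio of the counts of 7 AP-1 genes to JUN in the same library, with the control mean of each gene set to 0 (vertical axis); points are libraries and lines group means (n = 3). Every CDK12 point lies above every control point of its gene, with mean differences from 0.27 for JUNB to 0.73 for ATF3.

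To compare levels between genes, CPM was divided by exon length in kilobases from GENCODE 29, which need not be the gene model the authors counted on. In controls the order of level per length was JUNB (114 ± 3.56 CPM per kilobase), JUND (42.0 ± 3.56), ATF3 (34.3 ± 1.43), JUN (29.4 ± 1.31), FOSL2 (12.9 ± 0.42), FOSL1 (4.84 ± 0.27), FOS (3.02 ± 0.12) and FOSB (2.19 ± 0.13). No neighbours in this order overlapped between libraries. In the CDK12 libraries ATF3 (38.2 ± 1.87 CPM per kilobase) and JUND (35.7 ± 1.65) changed places, but their libraries overlapped, at 37.1 to 40.4 and 34.1 to 37.4. JUN, at 19.8 ± 0.97 CPM per kilobase, kept its place behind ATF3 and JUND. FOSL2 was at 13.1 ± 0.06 and the 3 scarce FOS genes at 2.18 to 4.73 CPM per kilobase. JUNB transcripts were thus the most abundant in both groups.

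As shares of the 8 genes per length, JUN made up 12.6%, 12.3% and 11.4% in controls and 9.61%, 9.39% and 9.40% with CDK12. ATF3 made up 13.5%, 14.6% and 14.4% in controls and 18.8%, 18.6% and 17.5% with CDK12. JUNB went from 47.0 ± 0.16% to 44.3 ± 1.02%, and JUND was at 17.3 ± 1.00% and 17.1 ± 0.29%, with overlapping libraries. FOSL2 went from 5.34 ± 0.25% to 6.26 ± 0.28%. Since shares add to a fixed total, a fall of JUN and JUNB raises the others.

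**Figure D4:**
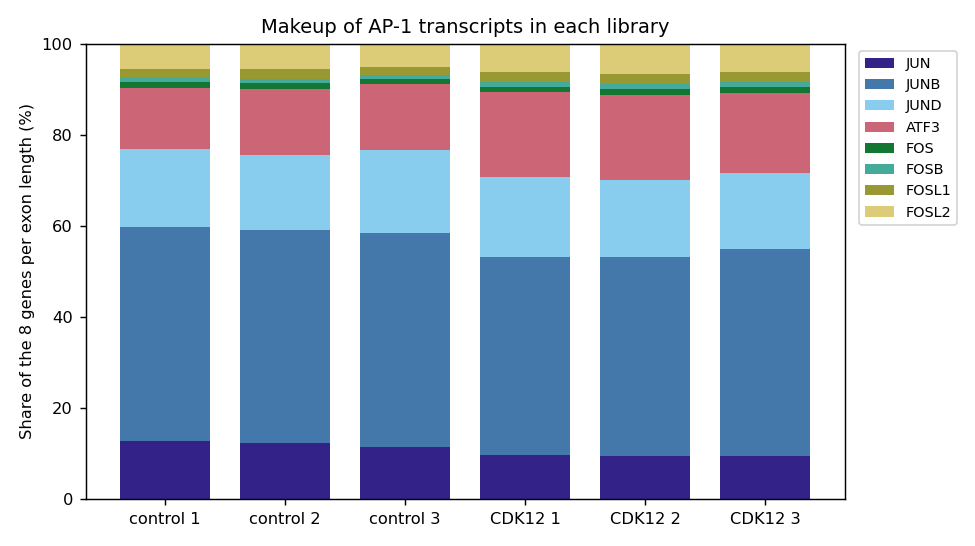
Makeup of AP-1 transcripts in each of the 6 libraries: each bar stacks the shares (percent, vertical axis) of the 8 genes in their summed CPM per kilobase of exon. JUNB takes 43.7% to 47.1% in every library, JUN is smaller and ATF3 larger in the 3 CDK12 libraries.

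Genes outside the family were ranked by how closely their profile over the 6 libraries followed each called member, as the root mean square difference of log2 levels, each centred on its mean. Among 10440 genes, TLE1 (0.02), SLC5A6 (0.03) and LIF (0.05) were nearest to JUN. TLE1, a corepressor gene, went from 37.5 ± 2.34 to 24.9 ± 0.79 CPM, and LIF, a cytokine gene of the interleukin 6 family, from 45.2 ± 0.99 to 31.5 ± 0.99 CPM. The nearest to JUNB were ID3, an inhibitor of helix-loop-helix factors, PIGT and the survival gene BCL2L1, all at 0.01. IGFBP2, GTF3C5 and KLF16 (all at 0.02) were nearest to JUND, and SLC46A3, EID2 and YPEL5 (0.02 each) to ATF3. EID2 itself did not pass the test (log2 fold change 0.13, edgeR quasi-likelihood adjusted p = 0.104). Leaving out single libraries, the edgeR quasi-likelihood adjusted p reached 0.114 for SLC46A3, 0.0663 for YPEL5, 0.0918 for GTF3C5 and 0.0914 for KLF16. With 6 libraries in 2 groups, any gene that differs between the groups by a like amount ranks high.

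Other genes of the pathway were taken from lists. Of 22 tested genes for basic leucine zipper partners of AP-1 and related factors, 5 fell and 5 rose, and 45.5% called compares with 35.1% of all genes; their median log2 fold change was 0.06 against 0.0035 for all genes. The small MAF genes encode proteins that can pair with FOS, and they did not move together. MAFF fell from 74.6 ± 0.46 to 59.1 ± 1.25 CPM and MAFK from 37.2 ± 2.38 to 30.4 ± 2.69 CPM. MAFG was called higher, going from 72.3 ± 0.17 to 82.4 ± 4.61 CPM. DDIT3, a stress-induced partner of ATF3 also called CHOP, rose from 43.5 ± 1.75 to 60.0 ± 3.42 CPM (log2 fold change 0.46, edgeR quasi-likelihood adjusted p = 1.64e-07). CREM, a cyclic AMP responsive factor, rose from 38.1 ± 4.13 to 48.7 ± 2.61 CPM. ATF5 fell from 54.5 ± 1.93 to 39.9 ± 1.34 CPM and CREB5, a partner of JUN, from 2.76 ± 0.24 to 0.940 ± 0.23 CPM. ATF2, the classical ATF partner of JUN, rose from 38.8 to 44.2 CPM, whereas the ATF4 levels of 621 and 662 CPM did not pass.

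Of 24 kinases of the MAP kinase routes that phosphorylate AP-1 subunits, 6 fell, 3 rose and 15 did not pass, and 37.5% called is near the 35.1% of all genes tested. The JUN kinase genes went as follows: MAPK10 fell from 38.5 ± 1.78 to 31.7 ± 0.36 CPM, while MAPK8 (34.0 and 37.1 CPM) and MAPK9 (98.9 and 98.0 CPM) did not pass. RPS6KA4, the gene of a kinase that acts at immediate early promoters, fell from 55.8 ± 2.63 to 45.1 ± 2.82 CPM. MAPK12 rose from 3.90 ± 0.72 to 6.08 ± 0.64 CPM. With total counts as the only scaling, 5 of these kinase genes were higher, as were 3324 of all 14665 genes tested.

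Of 9 genes for serum response factor and its cofactors, which bind immediate early promoters, 3 fell and 6 did not pass. Thus 33.3% were called, all lower, against 35.1% of all genes in either direction and 18.9% lower. SRF itself went from 53.6 ± 4.004 to 47.4 ± 1.33 CPM (log2 fold change -0.18, edgeR quasi-likelihood adjusted p = 0.0141), and its actin-regulated partner MKL1 from 49.1 ± 2.72 to 42.5 ± 1.297 CPM. The SRF call was lost without control replicate 1 (adjusted p = 0.107) or 3 (0.0689), and with total counts (0.0575, all by edgeR quasi-likelihood). MEF2D, also called lower, lost its call with upper-quartile factors (adjusted p = 0.0559) and total counts (0.0675). It was also lost without control replicate 1 (0.0795) or CDK12 replicate 1 (0.053, all by edgeR quasi-likelihood). With total counts 1 of the 9 was lower and 2 were higher, against 2064 lower and 3324 higher of all 14665 genes. Of 8 tested genes for ligases linked to JUN decay, or for subunits or adaptors of such ligases, 3 fell and 1 rose. Of all genes, 35.1% were called, 18.9% lower and 16.2% higher. The 3 that fell were the adaptor genes TRIB1 and TRIB2 and the subunit gene DDB1, and whether their products act on JUN proteins here was not tested. TRIB2, an adaptor of the COP1 ligase, fell from 14.4 ± 0.49 to 9.76 ± 0.48 CPM, and ITCH, a ligase for JUN and JUNB, rose from 110 ± 3.08 to 122 ± 2.98 CPM. FBXW7, which marks phosphorylated JUN for decay, was at 27.6 and 27.2 CPM and did not pass.

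Of 27 other immediate early genes tested, 12 fell, 2 rose and 13 did not pass (51.9% called, against 35.1% of all genes). Their median log2 fold change was -0.08, against 0.0035 for all genes. EGR1, like FOS a target of serum response factor, fell from 91.3 ± 7.11 to 74.1 ± 3.30 CPM. CYR61, a matricellular gene, fell from 104 ± 2.71 to 66.0 ± 3.44 CPM and PHLDA1 from 46.1 ± 0.72 to 27.7 ± 0.96 CPM. KLF6 fell from 103 ± 3.01 to 72.6 ± 3.26 CPM and the growth regulator MYC from 115 ± 4.71 to 89.6 ± 2.10 CPM. NR4A2, an orphan nuclear receptor, rose from 30.2 ± 0.58 to 39.5 ± 0.56 CPM, as did GEM from 219 ± 9.47 to 247 ± 9.84 CPM. DUSP1 (39.2 and 37.5 CPM) and ZFP36 (74.9 and 73.0 CPM), which like FOS respond fast to stimuli, did not pass. With upper-quartile factors or total counts 4 of these genes were higher. Of all 14665 genes tested, 3164 and 3324 were higher with these scalings.

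Of 24 tested genes often cited as AP-1 targets, 11 fell, 3 rose and 10 did not pass (58.3% called, against 35.1% of all genes), with a median log2 fold change of -0.22, against 0.0035 for all genes. CCL2, a chemokine gene, fell from 37.4 ± 2.57 to 18.6 ± 0.32 CPM. CCND1, the cell cycle gene of cyclin D1, fell from 856 ± 12.5 to 688 ± 8.24 CPM. MMP1, MMP2, MMP3, VIM and SPP1 had too few counts to be tested. MMP13, at 8 to 28 counts per library, was called lower, going from 1.11 ± 0.25 to 0.451 ± 0.10 CPM. HBEGF, MMP9 and IL6 were called higher, but without control replicate 3 none of the 3 calls remained. The groups overlapped for HBEGF and for MMP9, which had 16 to 53 counts per library. With the DESeq2 Wald test 1 gene of this list was higher, as with the replicate block, where MMP9 had an adjusted p of 0.0502 (edgeR quasi-likelihood). Of all 14665 genes tested, 1699 were higher with the Wald test and 2330 with the block. AP-1 binding was not measured.

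The TGANTCA heptamer was present in the promoter windows of 8.26% of genes called lower, 7.97% of genes called higher and 7.01% of genes not called, among 10704 tested genes with a RefSeq window. Genes with it had a median log2 fold change of -0.014, and genes without it -0.0035. Of 13 stress genes often induced beside ATF3, 4 rose and none fell, so that 30.8% were called, all higher. Of all genes tested, 35.1% were called in either direction and 16.2% higher. PPP1R15A, a phosphatase subunit of the stress response, rose from 285 ± 12.4 to 338 ± 4.82 CPM and XBP1, a factor of the unfolded protein response, from 1848 ± 45.9 to 2299 ± 93.2 CPM. TRIB3 (166 and 162 CPM) and ASNS (25.7 and 28.2 CPM), targets of ATF4, did not pass. Without control replicate 2 or CDK12 replicate 3, 2 of the 13 rose, beside 2072 of 14896 and 2073 of 14873 genes tested.

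**Figure D5:**
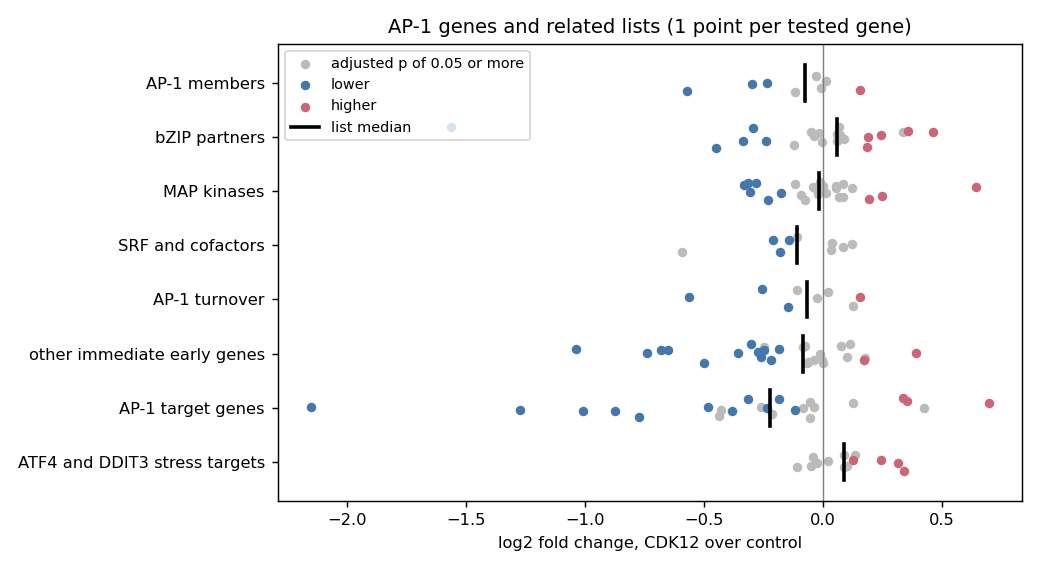
Log2 fold change, CDK12 over control (horizontal axis), of each tested gene of the AP-1 family and of 7 related lists; colours give the call at an adjusted p of 0.05 and black bars the list medians. The medians run from -0.22 for AP-1 target genes to 0.09 for the stress genes.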

How the data were processed

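Polyadenylated RNA of 6 ZR-75-30 libraries was sequenced from both ends with a strand-marking kit, per the labels' protocols. The authors deposited raw counts per gene symbol. Per the submitters' processing notes, reads came from CASAVA 1.8 and were handled by STAR 2.6.0c with hg19, then featureCounts of Subread 1.6.2; annotation, strand setting and multi-mapped reads are not described in the sources used here. Overlapping and antisense genes are therefore uncertain.

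Genes were filtered with filterByExpr of edgeR 4.0.16 (minimum count 10, minimum total 15), scaled by TMM and compared by quasi-likelihood F tests of group alone. These tests moderate the variance of a gene with that of the other genes, so its p-value does not rest on its own spread alone. The Benjamini-Hochberg adjustment ran over the 14665 genes that passed, and calls needed an adjusted p under 0.05. The SE is the log2 fold change divided by the root of F. The fit was checked on simulated counts. Replicates of a group differed by more than counting noise, with a chi-square of 2.74 to 4.54 per degree of freedom.

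The members and lists were chosen with earlier results of these data known. Genes named are the 8 members, up to 4 called members per list by smallest p in the commoner direction and up to 2 in the other, and the 3 nearest profiles per called member (mean of 5 CPM or more). Other list genes were named after their values were seen, and some genes are not reported here. Alternatives were other scalings, filters, DESeq2 1.42.0, voom of limma 3.58.1, a replicate block, CDK12 left out of the counts, and leaving out each library.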

Additional observations from a re-analysis of the deposited data

How the results depend on the processing

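JUN, JUNB and JUND stayed lower past the threshold under every alternative run. Leaving out 1 library at a time, the log2 fold change ran from -0.60 to -0.53 for JUN, -0.33 to -0.26 for JUNB, -0.30 to -0.17 for JUND and 0.12 to 0.19 for ATF3, whose adjusted p then reached 0.088; 0 to 1 members were called higher. Near 0, the sign of uncalled members turned. FOSB was at 0.029 with upper-quartile factors and 0.035 with total counts, FOSL1 at 0.007045 and 0.013, and without 1 library FOSB ran from -0.041 to 0.042, FOSL1 from -0.076 to 0.011 and FOSL2 from -0.0065 to 0.038. From 2 to 4 of the ATF4 and DDIT3 stress genes were called. Over all genes, 46.1% of 5143 calls were higher with TMM, 59.6% of 5308 with upper-quartile factors and 61.7% of 5388 with total counts, while the median log2 fold change moved to 0.04 and 0.05. With a single library left out, 3988 to 5045 genes were called. Whether the replicate numbers pair the libraries was not settled. Same-numbered deviations from the group means correlated at -0.21, 0.24 and 0.16 over 10825 genes, and differently numbered ones at -0.325 to 0.151. Deviations within a group of 3 libraries are tied to each other, so these values cannot decide it. With the replicate block 5106 genes were called, JUN was at -0.57 (adjusted p = 7.68e-07, edgeR quasi-likelihood) and no member's call changed. Low counts limit FOS, FOSB and FOSL1, at 191 to 328 per library.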

Other observations

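Some values near the AP-1 genes stood out and were picked after they were seen. FLJ31356, whose span overlaps the start of FOSL2 on the other strand, had 19, 10 and 27 counts in controls and 47, 33 and 47 with CDK12, and rose from 0.803 ± 0.31 to 1.69 ± 0.30 CPM (SD, n = 3; log2 fold change 1.04, SE 0.25; adjusted p = 0.00176 in edgeR). FOSL2 itself was at 87.96 ± 2.84 and 88.8 ± 0.38 CPM. The genes share 0 exon bases in GENCODE 29, but with the strand setting of the counting unknown, their reads cannot be fully told apart. HOOK2 and ERCC1, whose spans hold JUNB and FOSB on the other strand, also share 0 exon bases with them. HOOK2 was at 51.5 ± 2.11 and 54.2 ± 3.01 CPM and ERCC1 at 53.2 ± 1.81 and 52.2 ± 1.85 CPM, and neither passed the test.

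EGR4, an immediate early gene with too few counts to be tested, had 4 counts in each control and 11, 12 and 14 in the CDK12 libraries, while EGR1 fell. Involucrin (IVL), a marker of squamous differentiation with AP-1 sites, fell from 1.63 ± 0.30 to 0.364 ± 0.16 CPM, the largest fall on the log2 scale among the called AP-1 targets (log2 fold change -2.15, edgeR quasi-likelihood adjusted p = 1.71e-06). This fall rests on low counts, 34, 41 and 35 in controls and 6, 13 and 8 with CDK12.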
